A study of Mus musculus with 8 samples.

Results

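The nuclear genes of the mitochondrial respiratory chain and ATP synthase were followed in mouse whole eyes. They were taken from the count table by symbol: Nduf with a letter a, b, c, s or v and a digit (complex I), Sdha to Sdhd (complex II), Uqcr and Cyc1 (complex III), Cox4 to Cox8 (complex IV), Atp5 (complex V) and Cycs (cytochrome c). Symbols ending in -ps, which mark pseudogenes, were left out (6 symbols). The rule gave 86 genes out of 32517 symbols, with 37 in complex I, 4 in complex II, 9 in complex III, 18 in complex IV, 17 in complex V and 1 for cytochrome c. None lies on the mitochondrial chromosome.

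The study compared WT mice, which were Cre-, with mice in which Nr3c1, the glucocorticoid receptor gene, was deleted in the retina only (cKO, Cre+). All mice were male, aged 12 weeks and kept under 12 h of light and 12 h of dark without drug treatment. Zeitgeber time (ZT) counts hours from lights-on, and eyes were taken at ZT3, ZT9, ZT15 and ZT21, so that ZT3 and ZT9 fall in the light and ZT15 and ZT21 in the dark. Each of the 8 libraries, 1 for each genotype and time, is a pool of equal amounts of RNA from 3 mice, and the 4 times served as the replicates of a genotype. No genotype had another pool at the same time, so the spread between like pools was not measured. All p-values below rest on what the fitted model left over. That mixes differences between pools with effects that vary by time or genotype, and it does not measure the spread between mice. The Cre driver is not named in the labels, and the deletion spares the other tissues of the eye by the labels' description. The tissue and cell type fields give ciliary body and nonpigmented ciliary epithelium, but the sampling protocol is one for entire eyes. Rod markers summed to between 51906 and 70529 CPM (counts scaled to the adjusted library size) and lens markers to between 84849 and 179311 CPM, against 879 to 1119 CPM for 12 markers of nonpigmented ciliary epithelium and aqueous function.

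The respiratory chain passes electrons from NADH (complex I) and succinate (complex II) through complex III and cytochrome c to oxygen at complex IV, and complex V uses the proton gradient so built to make ATP. Complexes I, III, IV and V contain subunits from both the nuclear and the mitochondrial genome, whereas complex II is wholly nuclear-encoded. Photoreceptors are known for a very high demand for ATP, and their inner segments are packed with mitochondria. Several complex IV subunits and the c subunit of ATP synthase have alternative isoforms from separate genes, some of them typical of heart and skeletal muscle and some of testis.

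Libraries held 11748995 to 20309611 counts, and the 86 genes took 0.738 to 0.971% of them. Of the 86, 84 passed the filter on low counts. Cox7b2 and Cox8c, isoforms of complex IV known from testis, did not: Cox7b2 reached at most 0.079 CPM, and Cox8c had a count of 0 in every library, which allows up to 0.165 to 0.237 CPM by library (3 counts; counting error only). Nr3c1 was at 78.2, 145, 127 and 134 CPM in WT at ZT3, ZT9, ZT15 and ZT21 and at 38.2, 35.3, 36.4 and 32.5 CPM in cKO, so the groups did not overlap and the labels fit the targeted gene. Exons of 29 of the 86 genes overlap another gene, for example Cox4i1 with Emc8 and Ndufa13 with Tssk6. Whether the counting used the strand is not given, so reads of such pairs cannot be told apart. Of the 86, 11 have at least 1 near-identical copy elsewhere in the annotation, led by Atp5l with 13, Atp5h with 5 and Uqcrb with 4, and their counts are uncertain to that extent.

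Promoters of these genes are known to share binding sites for nuclear respiratory factor 1 (NRF1), GABP (also called NRF2), YY1 and the estrogen-related receptors (ERR), which coordinate nuclear genes for mitochondria. RefSeq windows running from 250 bases before to 50 bases after the transcription start (build GRCm38.p6) were found for 67 of the 86 genes, as 72 windows. The NRF1 motif GCGCANGCG, searched on both strands, stood in 22 of the 72 windows (30.6%), against 6.25% of all 32851 windows and 11.6% of the windows of the genes tested. The GABP motif CCGGAAG stood in 16 windows (22.2%, against 8.86% and 14.9%). The YY1 motif AAGATGG stood in 10 (13.9%, against 6.34% and 6.46%) and the ERR motif AAGGTCA in 8 (11.1%, against 4.72% and 3.42%). The cyclic AMP response element TGACGTCA stood in 5 (6.94%, against 1.79% and 2.84%). The TATA motif TATAAA stood in 8 (11.1%, against 13.6% and 7.79%). A match describes the letters only, and no binding was measured.

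A few windows that show how genes named in the results below differ are printed here, 5′ to 3′ on the strand of the gene, with matches to the NRF1, GABP and YY1 motifs in capitals. Cox6a1 held the most matches among these, with overlapping NRF1 matches on both strands, another NRF1 match and a GABP match. Cox8a and Cox8b encode alternative forms of the same complex IV subunit: the window of Cox8a held GABP matches around its start, while that of Cox8b held none of the 3 motifs marked but did hold a TATAAA. Sdha, whose level differed little between genotypes, had NRF1 matches beginning 98, 55 and 10 bases before the start. Uqcr10, among the genes most different between genotypes, and Ndufv1, among those most different at ZT3, had none of them.
Cox6a1 (GRCm38.p6, chr5:115348909-115349208, minus strand): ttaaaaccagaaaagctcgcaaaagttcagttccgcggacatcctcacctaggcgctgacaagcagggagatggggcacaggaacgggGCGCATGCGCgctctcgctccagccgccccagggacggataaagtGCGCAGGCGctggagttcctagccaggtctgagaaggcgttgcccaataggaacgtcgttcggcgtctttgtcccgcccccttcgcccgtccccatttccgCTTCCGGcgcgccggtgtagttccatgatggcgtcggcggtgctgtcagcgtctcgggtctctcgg
Cox8a (GRCm38.p6, chr19:7217567-7217866, minus strand): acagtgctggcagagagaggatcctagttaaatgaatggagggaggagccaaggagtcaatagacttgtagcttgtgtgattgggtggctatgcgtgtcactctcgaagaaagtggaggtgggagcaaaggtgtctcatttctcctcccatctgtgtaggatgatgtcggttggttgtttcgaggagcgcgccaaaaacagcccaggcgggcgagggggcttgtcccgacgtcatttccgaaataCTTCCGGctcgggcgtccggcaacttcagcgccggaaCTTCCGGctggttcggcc
Cox8b (GRCm38.p6, chr7:140900397-140900696, minus strand): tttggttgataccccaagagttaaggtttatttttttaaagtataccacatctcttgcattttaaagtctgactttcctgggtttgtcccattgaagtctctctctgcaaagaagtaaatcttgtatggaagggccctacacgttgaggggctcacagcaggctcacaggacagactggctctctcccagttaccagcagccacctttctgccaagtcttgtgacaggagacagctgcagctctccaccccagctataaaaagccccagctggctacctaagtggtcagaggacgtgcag
Sdha (GRCm38.p6, chr13:74350191-74350490, minus strand): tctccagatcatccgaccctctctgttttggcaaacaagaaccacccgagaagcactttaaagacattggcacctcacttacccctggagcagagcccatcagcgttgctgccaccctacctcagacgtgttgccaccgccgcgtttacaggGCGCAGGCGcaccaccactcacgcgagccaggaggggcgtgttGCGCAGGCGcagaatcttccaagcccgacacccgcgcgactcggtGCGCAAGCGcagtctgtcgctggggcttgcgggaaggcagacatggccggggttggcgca
Uqcr10 (GRCm38.p6, chr11:4704295-4704594, minus strand): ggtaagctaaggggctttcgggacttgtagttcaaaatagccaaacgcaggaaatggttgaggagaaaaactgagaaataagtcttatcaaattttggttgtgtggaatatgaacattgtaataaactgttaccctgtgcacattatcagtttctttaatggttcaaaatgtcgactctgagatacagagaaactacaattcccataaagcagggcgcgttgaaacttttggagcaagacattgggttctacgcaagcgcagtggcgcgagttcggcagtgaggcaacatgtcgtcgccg
Ndufv1 (GRCm38.p6, chr19:4012706-4013005, minus strand): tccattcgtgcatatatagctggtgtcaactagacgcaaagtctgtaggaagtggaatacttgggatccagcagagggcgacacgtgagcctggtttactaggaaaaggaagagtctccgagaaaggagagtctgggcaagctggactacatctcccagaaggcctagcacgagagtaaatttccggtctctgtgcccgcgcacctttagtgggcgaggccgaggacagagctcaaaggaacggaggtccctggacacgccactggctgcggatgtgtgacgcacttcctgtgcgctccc

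Summed over all 86 genes, the level in WT was 6872 CPM at ZT3, 7366 at ZT9, 8717 at ZT15 and 9372 at ZT21. In cKO it was 8892 CPM at ZT3, 10752 at ZT9, 9784 at ZT15 and 10112 at ZT21. The cKO pool was the higher of the pair at each of the 4 times, and by the widest margin at ZT9, although cKO at ZT3 lay below WT at ZT21. The library sizes behind CPM were adjusted by edgeR's TMM factors, which ran from 1.034 to 1.079 in WT and from 0.8939 to 0.9937 in cKO. In a whole eye, more RNA per cell and more cells of a type rich in that RNA cannot be told apart.

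No gene of the whole table passed the adjusted threshold for genotype in edgeR's quasi-likelihood test with Benjamini-Hochberg adjustment (0% of 15373 genes tested at adjusted p under 0.05), so no member passed it either. The targeted gene Nr3c1 also missed it (log2 fold change -1.73 ± 0.18 SE, edgeR adjusted p = 0.157), so missing it does not show that a gene was unchanged. At an unadjusted p under 0.05, 45 of the 84 members (53.6%) were higher in cKO, where 10.5% of all genes tested were, and 0 members were lower, where 11% of all genes were. With DESeq2, 19 members were higher in cKO at an adjusted p under 0.05, against 2.58% of all genes tested. DESeq2 gave an adjusted p to 77 of the 84 members but to only 8518 genes in all, and of those 8518 genes 4.66% were higher. The cKO pool was the higher at 4 of 4 times for 52 members, against 15.7% of all genes, and the lower at 4 of 4 times for 0, against 15.1%. All 4 cKO libraries lay above all 4 WT libraries for 26 members (31%), against 3.73% of all genes. The fitted log2 fold change, cKO over WT, was above 0 for 82 of 84 members, with a median of 0.31 against -0.03 over all genes.

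When libraries were scaled by their size alone, the median log2 fold change of all genes moved to -0.21. That of the members moved to 0.12. The members stood 0.34 above all genes under both scalings. Such a change shifts all genes of a library alike, so this gap could hardly change and is no separate check. With library size alone, 20 members were higher at an unadjusted p under 0.05, against 2.89% of all genes. The difference was uneven over the day. The median log2 ratio of cKO to WT over the members was 0.40 at ZT3, 0.58 at ZT9, 0.16 at ZT15 and 0.11 at ZT21, whereas that over all genes was 0.00, -0.03, -0.01 and -0.00. Without both ZT9 libraries 34 members were higher (40.5%, against 6.37% of all genes), with a median log2 fold change of 0.23. Without both ZT3 libraries 28 were (33.3%, against 12.3% of all genes), with a median of 0.30.

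**Figure D1:**
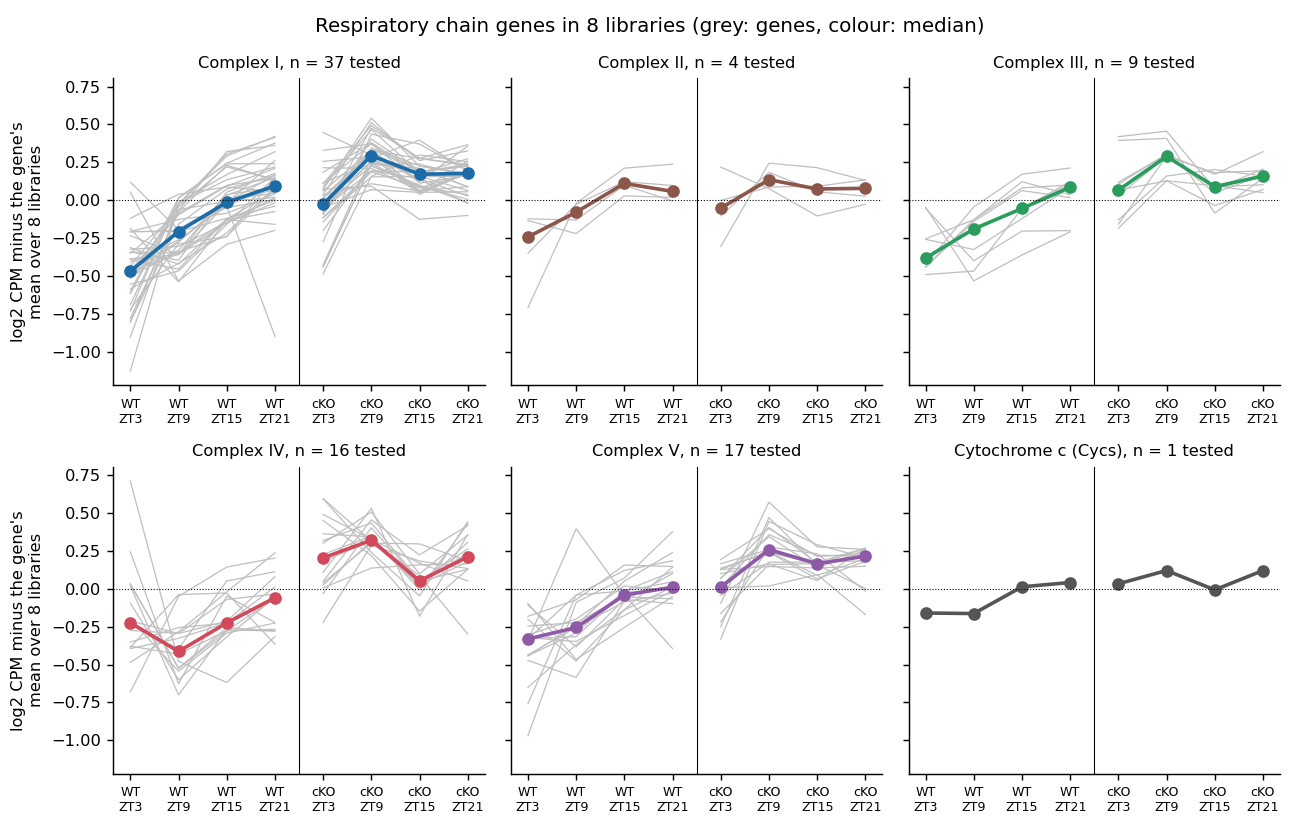
Level of each tested gene in the 8 libraries, as log2 CPM minus the gene's own mean over the libraries (vertical axis), by complex; grey lines are genes and coloured points the median of the complex. In complex I the median runs from -0.47 in WT at ZT3 to 0.29 in cKO at ZT9, in complex II only from -0.24 to 0.13, and in complex IV the 4 cKO medians (0.05 to 0.32) all lie above the 4 WT medians (-0.42 to -0.06).

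Complex I, which oxidises NADH, had 20 of its 37 genes higher in cKO at an unadjusted p under 0.05, with a median log2 fold change of 0.30. Its summed level was 2009, 2387, 2814 and 3039 CPM in WT at ZT3, ZT9, ZT15 and ZT21 and 2684, 3410, 3123 and 3090 CPM in cKO. The genotypes lay far apart in the light and close together in the dark, with median log2 ratios of 0.42 and 0.57 at ZT3 and ZT9 and of 0.19 and 0.08 at ZT15 and ZT21. Counts by kind of subunit are given without a test between them. Of the accessory subunits, 10 of 14 Ndufa genes and 7 of 10 Ndufb genes were higher, whereas of the genes that include the catalytic core it was 2 of 8 Ndufs genes and 0 of 3 Ndufv genes. With a trend with length and GC content removed, the 4 counts were 5 of 14, 5 of 10, 2 of 8 and 0 of 3. Before removal the median log2 fold changes of the Ndufa, Ndufb, Ndufs and Ndufv genes were 0.31, 0.35, 0.19 and 0.11. After it they were closer together, at 0.19, 0.24, 0.15 and 0.15.

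Ndufa13, an accessory subunit also known as GRIM-19, was at 73.4, 82.5, 94.8 and 117 CPM in WT at ZT3, ZT9, ZT15 and ZT21 and at 113, 157, 132 and 138 CPM in cKO. It was higher in cKO at every time, with only the ZT3 cKO pool below the highest WT pool (log2 fold change 0.57 ± 0.13 SE, n = 4 libraries per genotype, edgeR adjusted p = 0.157). Ndufb5, an accessory subunit of the membrane arm, was at 55, 54.8, 63.6 and 66.2 CPM in the WT pools and at 72.7, 87.6, 84.4 and 82.2 CPM in cKO, and its groups did not overlap (0.45 ± 0.10 SE, edgeR adjusted p = 0.157). Ndufa4 carries a complex I name but is now counted as a subunit of complex IV. It was at 156, 104, 123 and 131 CPM in the WT pools and at 205, 185, 156 and 170 CPM in cKO, and the lowest cKO value equalled the highest WT value at this rounding, with the cKO pools above (0.49 ± 0.12 SE, edgeR adjusted p = 0.157). Counting Ndufa4 and its relative Ndufa4l2 with complex IV left 18 of 35 genes of complex I higher and made it 12 of 18 in complex IV.

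The core subunits of complex I that carry the flavin and the iron-sulfur clusters differed less. Ndufv1, which holds the flavin that accepts electrons from NADH, was at 83.8, 154, 192 and 210 CPM in the WT pools and at 112, 175, 193 and 187 CPM in cKO, so that both genotypes ran low at ZT3 and the pools overlapped (log2 fold change 0.11 ± 0.12 SE). Ndufs1, the largest iron-sulfur subunit, was at 67.2, 75, 77.6 and 76 CPM in the WT pools and at 76.8, 77.9, 66.9 and 68.1 CPM in cKO, with cKO above WT in the light and below it in the dark (-0.03 ± 0.11 SE). Among the other core subunits, the log2 fold changes were 0.26 ± 0.13 SE for Ndufs8, 0.10 ± 0.11 SE for Ndufs7, 0.06 ± 0.12 SE for Ndufs3 and 0.06 ± 0.13 SE for Ndufv2. None of the core genes named here had an unadjusted p under 0.05.

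Complex II, succinate dehydrogenase, had 0 of 4 genes higher at an unadjusted p under 0.05. Its summed level was 405, 434, 507 and 502 CPM in WT at ZT3, ZT9, ZT15 and ZT21 and 467, 524, 511 and 515 CPM in cKO. The genotypes differed at ZT3 and ZT9 and lay together at ZT15 and ZT21. Sdha, the flavoprotein, was at 259, 244, 290 and 288 CPM in the WT pools and at 284, 302, 303 and 312 CPM in cKO, higher in cKO at every time but by a small margin (log2 fold change 0.15 ± 0.10 SE, edgeR adjusted p = 0.405). Sdhb, the iron-sulfur subunit, had 0.14 ± 0.12 SE, and the membrane anchors Sdhc and Sdhd had 0.08 ± 0.11 and 0.08 ± 0.12 SE. The median log2 fold change of the complex was 0.11, and it changed sign, to -0.07, when libraries were scaled by their size alone. That scaling moved the median of all genes tested as well, from -0.03 to -0.21.

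Complex III, the cytochrome bc1 complex, had 5 of 9 genes higher, with a median log2 fold change of 0.25. Its summed level was 671, 732, 857 and 893 CPM in the WT pools and 872, 1029, 924 and 961 CPM in cKO, and only cKO at ZT3 lay below the highest WT pool. Uqcr10, a small accessory subunit, was at 53.5, 38.2, 43 and 47.8 CPM in the WT pools and at 73.9, 75.8, 58.2 and 63.7 CPM in cKO, and the groups did not overlap (0.58 ± 0.13 SE, edgeR adjusted p = 0.157). The hinge protein gene Uqcrh was also separate, at 87.2 to 132 CPM in the WT pools and 133 to 153 CPM in cKO (0.45 ± 0.13 SE, edgeR adjusted p = 0.162). Uqcr11, another small subunit, overlapped between groups (0.43 ± 0.13 SE, edgeR adjusted p = 0.162).

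The catalytic and core subunits of complex III ran from 0.04 to 0.25, and the small subunit Uqcrb was also at 0.25 ± 0.12 SE. The Rieske iron-sulfur protein gene Uqcrfs1 had a log2 fold change of 0.11 ± 0.11 SE, Cyc1, which encodes cytochrome c1, 0.19 ± 0.10 SE, Uqcrc2 0.04 ± 0.11 SE and Uqcrc1 0.25 ± 0.10 SE. Uqcrc1 was the only one of these 4 with an unadjusted p under 0.05 (0.0441). Cycs, the mobile electron carrier between complexes III and IV, was at 44.7, 44.6, 50.4 and 51.4 CPM in the WT pools and at 51.1, 54.3, 49.7 and 54.3 CPM in cKO, and its groups overlapped (0.13 ± 0.10 SE, edgeR adjusted p = 0.445).

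Complex IV, cytochrome c oxidase, had 10 of its 16 tested genes higher and the largest median log2 fold change of the 5 complexes, 0.41. Its summed level was 1221, 1090, 1280 and 1388 CPM in the WT pools and 1622, 1860, 1543 and 1708 CPM in cKO. All 4 cKO pools lay above all 4 WT pools, and of the 5 complexes this held for complex IV only. The difference also extended into the dark, with median log2 ratios of 0.44, 0.74, 0.23 and 0.32 at ZT3, ZT9, ZT15 and ZT21. The difference between complexes was not tested.

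Cox4i1, the regulatory subunit found in most tissues, was at 226, 178, 212 and 222 CPM in the WT pools and at 320, 369, 278 and 332 CPM in cKO. Every cKO pool was above every WT pool (log2 fold change 0.63 ± 0.14 SE, edgeR adjusted p = 0.157, DESeq2 adjusted p = 0.00786), and the log2 ratio was 0.50, 1.05, 0.39 and 0.58 at ZT3, ZT9, ZT15 and ZT21. Cox7a2l, which promotes the joining of complexes III and IV into supercomplexes, was at 110, 106, 118 and 137 CPM in the WT pools and at 148, 196, 167 and 191 CPM in cKO, also with no overlap (0.57 ± 0.12 SE, edgeR adjusted p = 0.157, DESeq2 adjusted p = 0.00683). Cox8b was at 20.4, 12.4, 16.7 and 16.6 CPM in the WT pools and at 30.4, 23.8, 19.5 and 27.4 CPM in cKO, higher at every time but with 1 cKO pool inside the WT range (0.61 ± 0.14 SE, edgeR adjusted p = 0.157). Cox5a and Cox5b, subunits on the matrix side, had 0.23 ± 0.11 SE and 0.19 ± 0.12 SE.

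The shares of alternative isoforms overlapped between genotypes in the pairs measured. Per base of coding transcript, Cox8b, a form known from heart and skeletal muscle in rodents, made up 14.4 to 15.9% of the Cox8a and Cox8b sum in WT and 15 to 18.2% in cKO, and these ranges overlapped. Cox4i2, an isoform known from lung and for hypoxia, made up 5.46% ± 0.646 of its pair in WT and 5% ± 0.34 in cKO (SD, n = 4), or 9.82% ± 1.11 and 9.03% ± 0.586 when the union of exons was taken as the length. The muscle isoforms Cox6a2 and Cox7a1 made up 6.35% ± 1.48 and 10.4% ± 1.71 of their pairs in WT and 6.4% ± 1.24 and 10.4% ± 1.93 in cKO (SD, n = 4). Markers of skeletal muscle summed to 882 to 1449 CPM in the WT pools and 1125 to 1486 CPM in cKO over 19 genes. Of the 18 tested, 7 were higher in cKO at an unadjusted p under 0.05 (38.9%, against 10.5% of all genes) and 0 lower, with a median log2 fold change of 0.26. The part of muscle in the muscle isoforms was not tested. Cox6b2, known from testis, was detected at 2.94 to 7.39 CPM although 9 germ cell markers together gave 0.601 to 2.21 CPM, with Pgk2 at 0 in every library.

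Complex V, ATP synthase, had 10 of 17 genes higher, with a median log2 fold change of 0.33, and 9 of its genes had no overlap between genotypes. Its summed level was 2521, 2679, 3209 and 3498 CPM in the WT pools and 3196, 3875, 3633 and 3782 CPM in cKO, with cKO at ZT3 below the WT pools of the dark. Atp5b, which encodes the catalytic beta subunit, had the highest level per length of all 86 genes, a mean of 634 CPM per kilobase of coding transcript, followed by Cox4i1 at 349 and Cox8a at 302. It was at 882, 1016, 1242 and 1416 CPM in the WT pools and at 1071, 1340, 1345 and 1404 CPM in cKO, so the groups overlapped (0.20 ± 0.13 SE, edgeR adjusted p = 0.393). Atp5a1, the alpha subunit, was at 518, 428, 532 and 522 CPM in the WT pools and at 610, 662, 594 and 641 CPM in cKO, with no overlap (0.33 ± 0.12 SE, edgeR adjusted p = 0.195).

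The subunits of the stalks of ATP synthase varied. The gamma subunit Atp5c1 was at 135 to 179 CPM in the WT pools and 184 to 234 CPM in cKO (0.40 ± 0.11 SE), the delta subunit Atp5d at 96.8 to 129 and 150 to 161 CPM (0.44 ± 0.11 SE), and Atp5h at 111 to 140 and 148 to 187 CPM (0.43 ± 0.12 SE), all without overlap and with edgeR adjusted p of 0.157, 0.157 and 0.159. The epsilon subunit Atp5e and the b subunit Atp5f1 had 0.24 ± 0.14 SE and 0.25 ± 0.11 SE, below the median of the complex, and neither had an unadjusted p under 0.05. The c subunit, which forms the rotating ring, is encoded by 3 genes. Atp5g3 made up 85.5 to 89.5% of their sum per base of coding transcript in WT and 87.2 to 89.3% in cKO. With the union of exons as the length, this share was 73.2 to 78.1% in WT and 75.4 to 77.7% in cKO. The size of the share thus depends on the length chosen. Atp5s and Atp5sl, which carry an Atp5 symbol but are now named after assembly factors of the distal membrane arm, differed little (0.14 ± 0.13 and -0.03 ± 0.12 SE).

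**Figure D2:**
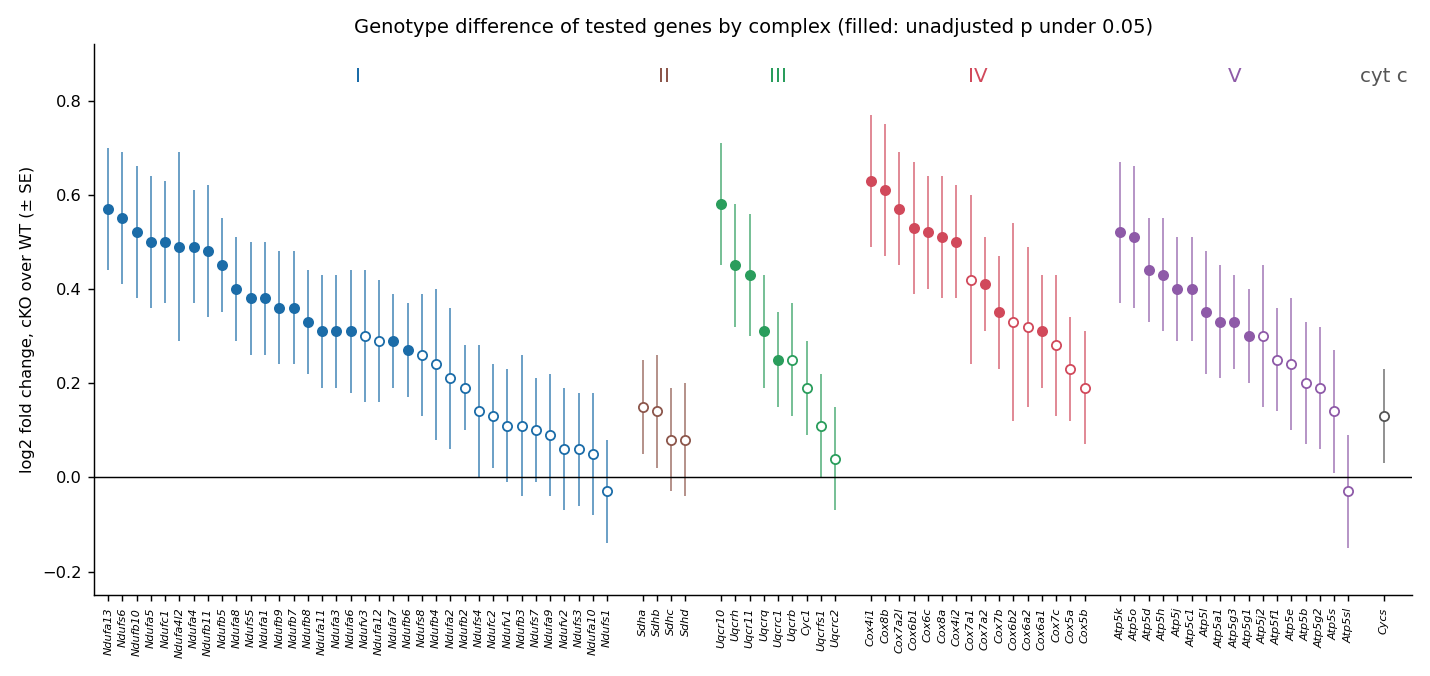
Log2 fold change of cKO over WT for the tested genes, grouped by complex and sorted within it, with 1 gene not shown; points are estimates of the edgeR fit, bars are ± 1 standard error, and filled points have an unadjusted p under 0.05 (45 genes). With this scaling only Ndufs1 and Atp5sl lie below 0, at -0.03 each, and Cox4i1 is highest at 0.63.

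Across the complexes, 22 genes, mostly for catalytic subunits, core subunits and electron carriers, formed a list chosen with earlier results known. The list also held Cox4i1, a regulatory subunit of complex IV. Of the 22, 4 (18.2%) were higher at an unadjusted p under 0.05 (Uqcrc1, Cox4i1, Atp5a1 and Atp5c1), against 10.5% of all genes tested. The median log2 fold change of the 22 was 0.15. It became -0.04 when libraries were scaled by their size alone, where that of all genes moved from -0.03 to -0.21. Transcript length ran alongside these values. Across the 84 genes, Spearman's rho between the genotype log2 fold change and the log2 length of the longest coding transcript was -0.50, and across all 15288 genes with a length it was -0.24, as a description over genes measured in the same 8 libraries.

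Within classes of length the members stood above the other genes. Of transcripts up to 750 bases, the 33 members had a median log2 fold change of 0.36 and the 384 other genes 0.16. Between 750 and 1000 bases it was 0.40 for 15 members and 0.19 for 438 others. From 1000 to 1500 bases it was 0.29 for 13 members and 0.08 for 1314 others, and from 1500 to 2500 bases 0.20 for 16 members and 0.01 for 3262 others. When a trend with length and GC content was removed from each library, the median of the members was 0.22 against 0.01 over all genes, and 35 of 84 were higher at an unadjusted p under 0.05 (41.7%, against 12.8% of all genes). Complex I then had 13 of 37 higher with a median of 0.17, complex IV 9 of 16 with 0.29 and complex V 9 of 17 with 0.25.

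**Figure D3:**
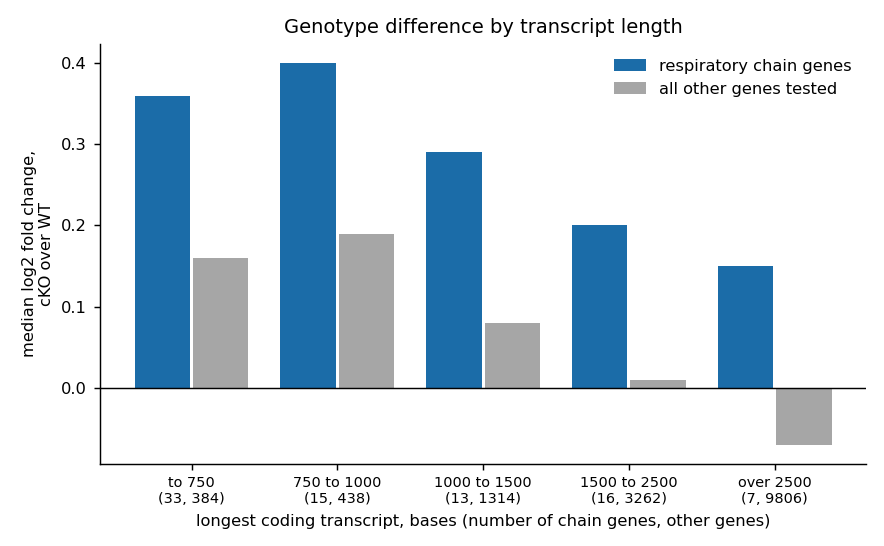
Median log2 fold change of cKO over WT (vertical axis) in 5 classes of the longest coding transcript (horizontal axis, bases), with the number of respiratory chain genes and of other genes in parentheses. Both are highest from 750 to 1000 bases, at 0.40 for chain genes and 0.19 for the other genes, and fall in the longer classes. From the shortest to the longest class they go from 0.36 to 0.15 and from 0.16 to -0.07. The chain genes are the higher in each class.

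Other gene lists give the scale of the difference. At an unadjusted p under 0.05, 10.5% of all genes tested were higher in cKO and 11% lower. The 13 messenger RNAs encoded by mitochondrial DNA, which provide the remaining subunits of complexes I, III, IV and V, were all higher in cKO at an unadjusted p under 0.05, with a median log2 fold change of 1.20. They summed to 51166, 12163, 12554 and 10526 CPM in WT at ZT3, ZT9, ZT15 and ZT21 and to 64381, 41310, 20916 and 39643 CPM in cKO, so that the ZT3 pools were high in both genotypes where the nuclear members were low. Of the cytosolic ribosomal protein genes 73 of 84 tested were higher (median 0.48), and of the mitochondrial ribosomal protein genes 7 of 77 were higher and 2 were lower (median 0.04). Of the assembly factors of the chain 9 of 56 were higher and 2 lower (median -0.00), of the tricarboxylic acid cycle genes 3 of 23 were higher and 1 lower (median 0.08), and of mitochondrial carriers and uncouplers 4 of 11 were higher (median 0.25).

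Of the regulators of mitochondrial biogenesis 5 of 27 were lower and 0 higher by the same threshold, where 11% of all genes tested were lower and 10.5% higher. Their median log2 fold change was -0.12. With the length and GC trend removed, the median was -0.01 against 0.01 over all genes. Of the regulators 4 were then lower and 1 higher, and of all 15288 genes 1490 were lower and 1955 higher. Ppargc1b, a coactivator of NRF1 and ERR, was at 35.5, 65.9, 54.1 and 51 CPM in the WT pools and at 36.2, 38.3, 35.7 and 29 CPM in cKO (-0.54 ± 0.16 SE, edgeR adjusted p = 0.162). Gabpb2, which encodes a partner of GABPA, was lower in cKO at every time (-0.44 ± 0.15 SE, edgeR adjusted p = 0.178). Of the factors whose motifs were searched, Nrf1 itself was at 30.9 to 33.5 CPM in the WT pools and 25.1 to 28.7 CPM in cKO (-0.23 ± 0.09 SE, edgeR adjusted p = 0.217), and Yy1 and Esrra had -0.03 ± 0.09 and 0.15 ± 0.10 SE. Of the 43 windows of the members that were higher in cKO, 17 held the NRF1 motif and 11 the GABP motif. Among all 72 member windows the shares were 30.6% and 22.2%, and among windows of all genes tested 11.6% and 14.9%. A link between motifs and calls was not tested.

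Lists of markers of eye tissues differed between genotypes in both directions. Counts are at an unadjusted p under 0.05, where 10.5% of all genes tested were higher in cKO and 11% lower. Of the 10 cornea and conjunctiva markers 6 were higher and 0 lower (median log2 fold change 0.54). Of 13 lens markers 12 were higher in cKO, and they summed to 84849 to 111303 CPM in the WT pools and 132243 to 179311 CPM in cKO without overlap. Of the retinal pigment epithelium markers 6 of 9 tested were higher and of the Müller glia markers 7 of 10, with sums of 1377 to 3012 and 3231 to 6180 CPM in the WT pools and 2059 to 3190 and 4937 to 6987 CPM in cKO. Of 15 rod markers 0 were higher or lower (median log2 fold change 0.06), and of 8 cone markers 2 were higher (median 0.19). Of 12 markers of nonpigmented ciliary epithelium and aqueous function 2 were higher and 1 was lower (median 0.08), and of 7 erythrocyte markers tested 5 were lower (median -1.33). None of the lens, pigment epithelium, glia and rod markers was at 0 in every library. The part of lens, pigment epithelium, glia, cornea or muscle in the levels of the members was not tested.

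Time of day was examined by a cosine wave with a 24 h period shared by both genotypes. At an unadjusted p under 0.05, 6 of 84 members (7.14%) followed it, against 17.8% of all genes tested, and 0 members and 0% of all genes did at an adjusted p under 0.05 in edgeR. DESeq2 called 0 members and 3.96% of all genes at an adjusted p under 0.05. The 6 were Ndufv1, Ndufa2, Ndufa9, Atp5g2, Sdhb and Ndufb7. Ndufa2, an accessory subunit of the matrix arm, was at 30.4, 65.3, 82.1 and 88.6 CPM in the WT pools and at 49.4, 80.6, 87.5 and 75.8 CPM in cKO, with a fitted peak at ZT 15.6 and a peak 2.17 times the trough (unadjusted p = 0.0276 in the edgeR fit). Its ZT3 pool was the lowest in both genotypes, and the other 3 times lay closer together. Atp5g2, a c subunit isoform of low level, instead was highest at ZT9 in both, at 9.48 CPM in the WT pools and 9.98 CPM in cKO.

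Because ZT3 stood apart, it was compared with the other 3 times with genotype as a covariate, a comparison chosen after these values were seen. At an adjusted p under 0.05 in edgeR, 20 members (23.8%) were lower at ZT3, against 15.9% of all genes tested, and 2 (2.38%) were higher, against 15.4%. The ZT3 pool was the lowest of both genotypes for 43 members (51.2%), against 26.9% of all genes, and the highest of both for 6 (7.14%), against 24.8%. These calls rested on 1 library. Without the WT pool of ZT3, 0 of all genes tested passed, although the median over the members stayed below 0 at -0.18. With the length and GC trend removed, 10 members were lower (11.9%, against 16.2% of all genes) and 11 higher (13.1%, against 16.4%).

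Complexes I and IV differed in this comparison, though their difference was not tested. In complex I, 12 of 37 genes were lower at ZT3, 0 were higher and 24 had their lowest pool there in both genotypes, with a median log2 fold change of -0.34. In complex IV, 1 of 16 was lower, 2 were higher, 3 had their lowest and 5 their highest pool at ZT3, with a median of -0.09. Complexes II, III and V had 1 of 4, 3 of 9 and 3 of 17 genes lower and 0 higher. All of the ZT3 calls of complex IV in this fit are thus Cox5b, Cox6b2 and Cox6c. With the length and GC trend removed, complex I had 5 genes lower and 3 higher at ZT3, with a median of -0.14. Complex IV then had 1 lower and 6 higher, with a median of 0.19.

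The lowest values at ZT3 were those of Ndufa2 and Ndufv1 in complex I. Ndufa2, with the values above, had a log2 fold change of -1.03 ± 0.18 SE against the other times (edgeR adjusted p = 0.00566). Ndufv1 had -0.93 ± 0.16 SE (edgeR adjusted p = 0.00529). Ndufa9, which lies at the junction of the 2 arms of complex I, was at 48.1, 80.3, 105 and 108 CPM in the WT pools and at 61.9, 99.3, 99.2 and 93.6 CPM in cKO, low at ZT3 in both (-0.83 ± 0.15 SE, edgeR adjusted p = 0.00585). Elsewhere, Atp5j2, the f subunit of ATP synthase, had -0.87 ± 0.16 SE, Sdhb -0.67 ± 0.12 SE and Cox5b -0.60 ± 0.13 SE, with edgeR adjusted p of 0.00696, 0.00646 and 0.00972. Of the 20 members lower at ZT3, 6 (30%) were also higher in cKO at an unadjusted p under 0.05. That share was below the 53.6% among all 84 members. Of all 2441 genes lower at ZT3 6.84% were higher in cKO.

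The 2 genes higher at ZT3 were Cox6b2 and Cox6c. Cox6b2 was at 7.39, 3.24, 2.94 and 3.63 CPM in the WT pools and at 6.82, 5.62, 4.79 and 3.67 CPM in cKO, highest at ZT3 in both (0.86 ± 0.21 SE, edgeR adjusted p = 0.0162). Cox6c, a small membrane subunit, was at 94.6, 64.2, 76.3 and 76.9 CPM in the WT pools and at 130, 116, 104 and 95.9 CPM in cKO (0.35 ± 0.11 SE, edgeR adjusted p = 0.0456). For Cox6c, the genotypes were also separate (0.52 ± 0.12 SE, edgeR adjusted p = 0.157). Across the 84 members, Spearman's rho between the genotype and ZT3 log2 fold changes was 0.41, and across all 15288 genes it was 0.36; both contrasts come from the same libraries.

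**Figure D4:**
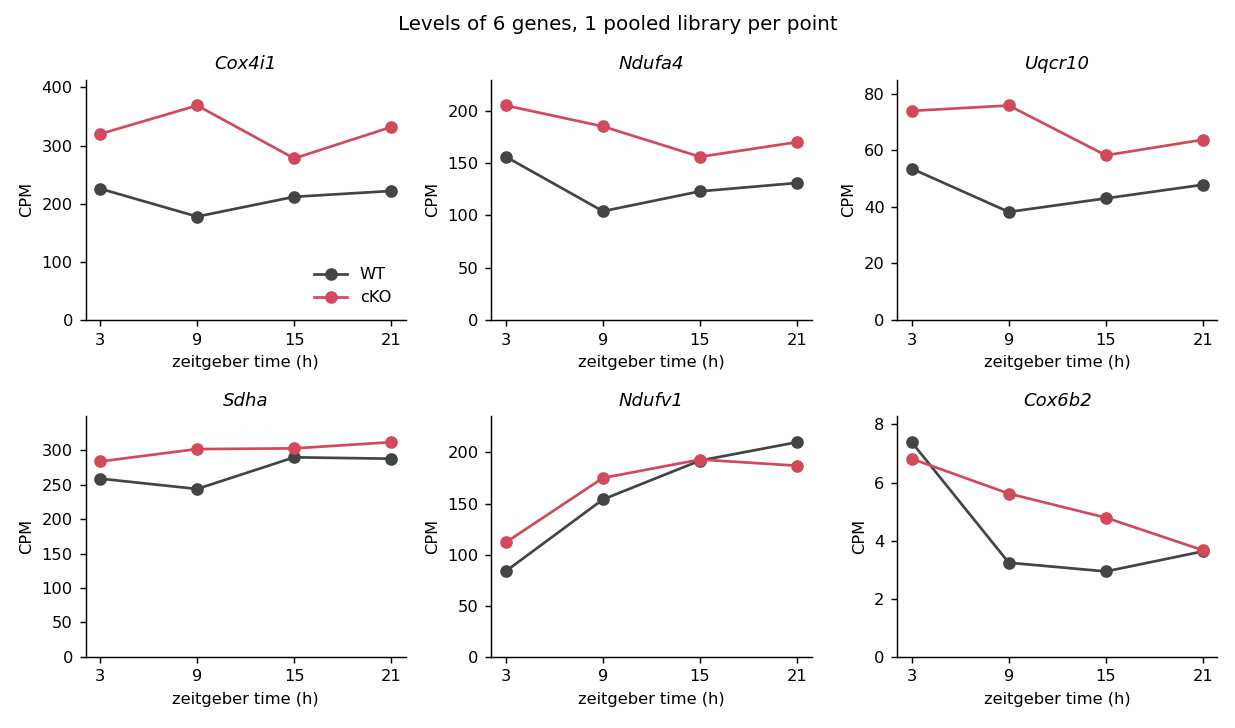
Level in CPM (vertical axis, from 0) of 6 genes at the 4 zeitgeber times (horizontal axis, h), with WT in grey and cKO in red and 1 pooled library per point, so no error bar can be drawn. Cox4i1, Ndufa4 and Uqcr10 are higher in cKO at each time, Sdha is nearly flat, Ndufv1 is low at ZT3 in both genotypes (83.8 and 112 CPM), and Cox6b2 is high there (7.39 and 6.82 CPM).

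**Figure D5:**
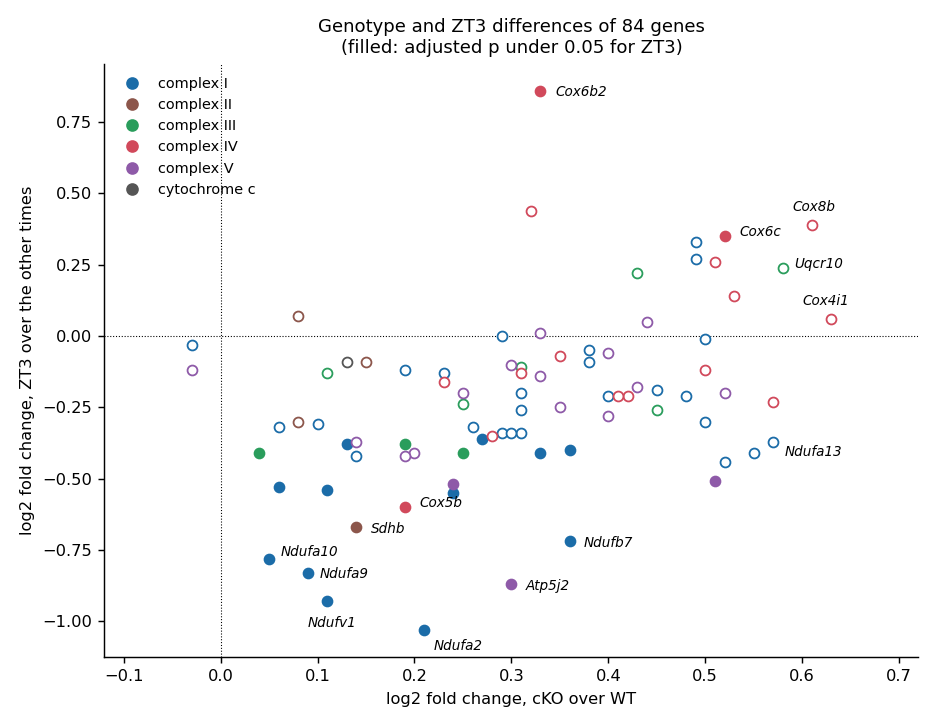
Log2 fold change of cKO over WT (horizontal axis) against that of ZT3 over the other times (vertical axis) for the 84 tested genes, coloured by complex; filled points passed an adjusted p under 0.05 for ZT3. Ndufa2, lowest at ZT3 with -1.03, has a genotype difference of 0.21, and the complex IV genes Cox4i1 and Cox8b, with the largest genotype differences, lie above 0 on the ZT3 axis.

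Counts of other lists at ZT3 stand beside the 15.9% of all genes lower and 15.4% higher. Of the cytosolic ribosomal protein genes 45 of 84 were lower at ZT3 and 0 higher, of the mitochondrial ribosomal protein genes 29 of 77 were lower and 1 higher, and of the chain's assembly factors 9 of 56 were lower, a share close to that of all genes, and 4 higher, whereas the 13 mitochondrially encoded messenger RNAs were all higher. Markers of retinal pigment epithelium were higher at ZT3 in 6 of 9 and those of Müller glia in 6 of 10, and lens markers were lower in 7 of 13 and higher in 2. Their part in the ZT3 difference of the members was not tested. Of the 16 windows of members lower at ZT3, 3 held the NRF1 motif and 4 the GABP motif. Among all 72 member windows the shares were 30.6% and 22.2%, and among windows of all genes tested 11.6% and 14.9%.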

How the data were processed

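The authors deposited raw counts per gene symbol for 8 pooled libraries with no normalization, per the values of the deposited table. How reads were aligned and counted, with which strand setting, build and annotation, is not given in the sources used here. Of 32544 symbols, 27 had been turned into dates and were left out (at most 0.145% of a library). Totals were 11748995 to 20309611 counts, and their number limits the precision of low genes only by counting error.

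Testing used edgeR 4.0.16 in R 4.3.3 with TMM factors, the filterByExpr filter on genotype groups and the quasi-likelihood F test, with Benjamini-Hochberg adjustment over all genes and a threshold of 0.05. The scripts were tested on simulated data. The genotype fit had collection time as a factor (3 residual degrees of freedom), the 24 h wave had genotype as a covariate (4), and the ZT3 comparison, added after the data were seen, likewise (5). Fits covered the whole table and the members' rows are printed. Alternatives were DESeq2 1.42.0, limma-voom 3.58.1, other scalings, no filter, no time factor, removal of a length and GC trend, mitochondrial genes left out, and libraries left out. Lengths, GC, overlaps and copies (at least 90% identity over 50% of the length) came from GENCODE M21 by symbol. Summed levels, medians and counts over lists carry no test.

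The members and lists were chosen with earlier results of these data known. Named genes were Nr3c1, the 3 smallest genotype p of each complex (all of complex II), the 5 smallest wave p, the isoform pairs, the catalytic core (1 gene is not reported here), the ends of ranges, and the 2 smallest p of each other list; Uqcrb, Atp5e, Atp5f1, Atp5j2, Atp5s, Atp5sl, Cox6c, Ndufb7, Nrf1, Yy1, Esrra and the genes whose light and dark ratios differ in sign were named after their values were seen.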

Additional observations from a re-analysis of the deposited data

Results flagged for a closer look

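Some libraries stood far from the others of their genotype, by the ratio of the gap at the end to the whole range (Dixon's ratio for 4 values). Over 108 groups looked at, chance alone would flag about 1 in 20. In WT, Atp5a1 was low at ZT9 at 428 CPM, and Cox6b2 was high at ZT3 at 7.39 CPM. In cKO, Cyc1, Ndufa9 and Ndufs3 were low at ZT3 at 81.8, 61.9 and 67.8 CPM, Cox8a was low at ZT15 at 164 CPM, and Atp5g3 was high at ZT21 at 165 CPM.

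For 12 of the 84 tested genes (14.3%, against 6.83% of all genes tested), cKO was above WT at both times of the light phase and below it at both times of the dark phase. The opposite held for 0 of them, against 9.22% of all genes. The mean log2 ratio of cKO to WT in the light exceeded that in the dark by 0.54 for Ndufb3, 0.54 for Ndufs4, 0.51 for Ndufv2, 0.48 for Ndufa9, 0.42 for Ndufa10, 0.39 for Sdhd, 0.37 for Ndufs3, 0.33 for Atp5sl, 0.32 for Uqcrc2, 0.31 for Ndufs1, 0.31 for Ndufs7 and 0.30 for Sdhc. These genes were picked by the change of sign and not by the size of the difference. Other members differed as much between light and dark, such as Ndufa2. Its log2 ratios were 0.70, 0.30, 0.09 and -0.22 at ZT3, ZT9, ZT15 and ZT21. The difference between light and dark was not tested.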

How the results depend on the processing

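The members' median genotype log2 fold change kept its sign under every alternative run, from 0.12 with library size alone to 0.38 without WT at ZT15 or at ZT21, and in none of them was a member lower in cKO at an unadjusted p under 0.05. The number higher was 45, and it was 20 with library size alone and 28 without both ZT3 libraries; leaving out 1 library at a time gave 28 to 47, the 28 without either ZT3 pool. DESeq2 called 19 members at an adjusted p under 0.05 where edgeR called 0. The median of complex II turned to -0.07 with library size alone, where that of all genes moved from -0.03 to -0.21. The number following the 24 h wave was 6, and it was 11 with the length and GC trend removed, 11 with library size alone, 10 with time as a factor, 1 without both ZT3 libraries and 25 without both ZT9 libraries. The shares of all genes in these fits were 19.9, 17.9, 25.9, 2.65 and 36%, each above the members' share. Leaving out 1 library gave 0 to 18. At ZT3, 20 members were lower and 2 higher. With the length and GC trend removed this became 10 and 11, and the number higher was 1 with mitochondrial genes left out, 1 with no filter and 1 with upper quartile factors; leaving out 1 library gave 0 to 35 lower and 0 to 3 higher, the 0 without the WT pool of ZT3, where the remaining ZT3 pool was assumed to vary like the others. The cause of these shifts was not tested. The genotype fit pairs the pools by time; without the time factor 38 members were higher. Depth limited Ndufa4l2, Cox6b2, Cox7a1 and Atp5g2, at mean levels under 10 CPM, and gave no test of Cox7b2 and Cox8c.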
